A study of Mus musculus with 8 samples.

Results

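Enamel is laid down by ameloblasts in stages. In the secretory stage these epithelial cells release a soft protein matrix, and in the maturation stage they break that matrix down, remove it and pump in mineral until the tissue is hard. *Klk4*, *Amtn* and *Odam* are genes of the maturation stage. *Klk4* encodes a secreted serine protease that cuts the leftover matrix proteins. *Amtn* (amelotin) and *Odam* (odontogenic ameloblast-associated protein) encode secreted proteins found in the basal lamina between the maturation-stage ameloblast and the enamel surface. The 3 genes were chosen by name from the 23358 genes of the expression table, where each has 1 entry.

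The mouse incisor grows throughout life from the cervical loop (CL) at its base. RNA-seq was done on the CL head (CLH), which holds dental epithelial stem cells, and the CL tail (CLT), which holds their progenies, in C57BL/6 mice at 4 weeks of age. The cKO mice carried floxed *Med1*, a subunit gene of the Mediator complex, and a Cre recombinase driven by the *Krt14* promoter, which is active in epithelial cells and not in the mesenchyme below them. Ctrl mice were littermates without Cre. Each of the 4 groups had 2 libraries of pooled tissues, from 2 litters, so p-values measure the spread between pools. The labels name CLH and CLT but no ameloblast stage. Values are RPKM, reads per kilobase of gene scaled to the library's total, and the reads behind each value were recovered from them. Reads on genes numbered 22330512 to 28651106 per library.

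*Med1*, the floxed gene, was looked at before the others. In CLT the libraries labelled WT (Ctrl) had an RPKM of 4.83 and 8.71, and those labelled KO (cKO) had 9.15 and 8.96. In CLH the values were 7.71 and 9.12 for Ctrl against 7.10 and 7.03 for cKO. *Med1* RPKM was therefore not lower in the CLT libraries labelled KO, and the table holds no values for single exons. Below, cKO and Ctrl stand for the libraries labelled KO and WT.

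The CLT libraries also differed in which tissues' genes they held. Within a group, the log2 ratio of a gene between its libraries had a median size of 0.48 in Ctrl CLT, against 0.11 to 0.14 in the other 3 groups. Hair genes (6 of 6 measured) summed to an RPKM of 3440 in Ctrl CLT 1, 10.9 in Ctrl CLT 2, against 9851 and 10782 in cKO CLT, with *Krt71* the most abundant. Ctrl CLT 1 thus held 33.3% of the mean cKO CLT level of these genes and Ctrl CLT 2 held 0.106%. Skeletal muscle genes (6 of 6), led by *Acta1*, summed to 658 and 49.7 in Ctrl CLT against 1807 and 1987 in cKO CLT. Cornified epidermis genes (6 of 7), led by *Krt10*, summed to 444 and 4.18 in Ctrl CLT against 1241 and 1288 in cKO CLT. In the 4 CLH libraries the same sums stayed between 6.20 and 8.47 for hair, 26.4 and 30.7 for muscle, and 5.71 and 20.7 for cornified epidermis. The hair and muscle lists thus lay above every CLH library in both Ctrl CLT libraries and in both cKO CLT libraries, and the cornified list did so in all of these but Ctrl CLT 2. In each list 6 of 6 genes were higher in cKO CLT without overlap, as were 37.2% of all genes tested, and the median log2 fold changes were 5.30 for hair, 3.23 for muscle and 4.26 for cornified epidermis. limma called 0 in each, with an unadjusted p under 0.05 for 0, 1 and 0 genes (5116 of all 14148 genes tested), and voom called 0. With Ctrl CLT 1 left out, all 6 of each list passed and the medians were 9.05, 5.0 and 6.91. With Ctrl CLT 2 left out, all 6 of each passed as well and the medians were 1.57, 1.57 and 1.51. In these fits 69.5% and 52.1% of all genes tested passed, which holds for every count with a Ctrl CLT library left out below.

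Genes of odontoblasts and bone, cells of mesenchymal origin, summed to 2853 and 3368 in Ctrl CLT, 1017 and 1174 in cKO CLT and 2919 to 4080 in CLH (8 of 8 measured), with *Col1a1* the most abundant over the 8 libraries. *Col1a2*, at 639 and 699.6, led in cKO CLT, ahead of *Col1a1* at 376 and 472. The dentin gene *Dspp* stood at 543 and 644 in Ctrl CLT against 0.145 and 0.174 in cKO CLT. *Ibsp* had no read in either cKO CLT library, and 5 of the 8 genes were under an RPKM of 1 in both. limma called 5 of the 8 lower in cKO CLT, against 1.68% of all genes tested, voom called 0, and the median log2 fold change was -4.08. Of the dental epithelium markers (6 of 6 measured), the basal keratin gene *Krt5* was the most abundant over the 8 libraries. In cKO CLT *Krt17* led, at 946 and 1113, ahead of *Krt5* at 936 and 1079. The list summed to 1752 and 912 in Ctrl CLT against 2633 and 3030 in cKO CLT, with 726 to 865 in CLH. The median log2 fold change of this list was 0.82. These values move with every difference in CLT given below, and their part in the results was not tested. In bulk tissue, fewer cells of a type and less RNA per cell cannot be told apart.

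*Klk4* (chromosome 7, 43881172 to 43885804, mm10) has 6 exons in the GENCODE M21 annotation. Ctrl CLT 1 held 187 RPKM and Ctrl CLT 2 held 206, against 0.231 and 0.119 in the cKO CLT libraries. In CLH it had 1.46 and 1.65 in Ctrl against 0.886 and 1.48 in cKO. Both Ctrl CLT libraries stood far above the other 6, and both cKO CLT libraries lay below every CLH library. The cKO CLT values rest on 8 reads (exact 95% Poisson interval 3.45 to 15.8) and 4 reads (1.09 to 10.2), against 6753 and 6771 reads in Ctrl CLT. Mean RPKM (± SD, n = 2) was 196 ± 13.6 for Ctrl CLT, 1.56 ± 0.14 for Ctrl CLH, 1.18 ± 0.42 for cKO CLH and 0.175 ± 0.079 for cKO CLT. Ctrl CLH and cKO CLH, neighbours in that order, overlapped.

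*Amtn* (chromosome 5, 88376108 to 88385916) has 9 exons and was among the most abundant transcripts of Ctrl CLT. Its RPKM was 4429 and 3246 there, which ranked 3 and 4 among all genes and made up 0.531% and 0.387% of the reads on genes. It was 6.88 and 8.72 in cKO CLT, from 197 and 243 reads. In CLH the values were 13.8 and 19.3 in Ctrl and 5.48 and 13.2 in cKO. Ctrl CLT stood apart from all else, and the cKO CLT values fell inside the range of cKO CLH. Group means were 3837 ± 836 for Ctrl CLT, 16.5 ± 3.89 for Ctrl CLH, 9.33 ± 5.44 for cKO CLH and 7.80 ± 1.30 for cKO CLT (SD, n = 2 each). The means of cKO CLH and cKO CLT differed by less than the SD of cKO CLH.

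*Odam* (chromosome 5, 87885695 to 87892742) lies on the same chromosome, and 483 kb separate its end from the start of *Amtn*. GENCODE M21 gives transcripts of 10 and 12 exons, and the counted gene starts where the transcript of 10 exons does. Ctrl CLT 1 held 871 RPKM and Ctrl CLT 2 held 3671, where it ranked 42 and 3 among all genes. In cKO CLT it was 2.01 and 1.14, from 49 and 27 reads. In CLH it had 4.21 and 5.91 in Ctrl against 4.26 and 5.61 in cKO. The CLH groups overlapped almost entirely, Ctrl CLT lay above both and cKO CLT below both. Group means were 2271 ± 1980 for Ctrl CLT, 5.06 ± 1.20 for Ctrl CLH, 4.93 ± 0.95 for cKO CLH and 1.58 ± 0.62 for cKO CLT (SD, n = 2 each).

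**Figure D1:**
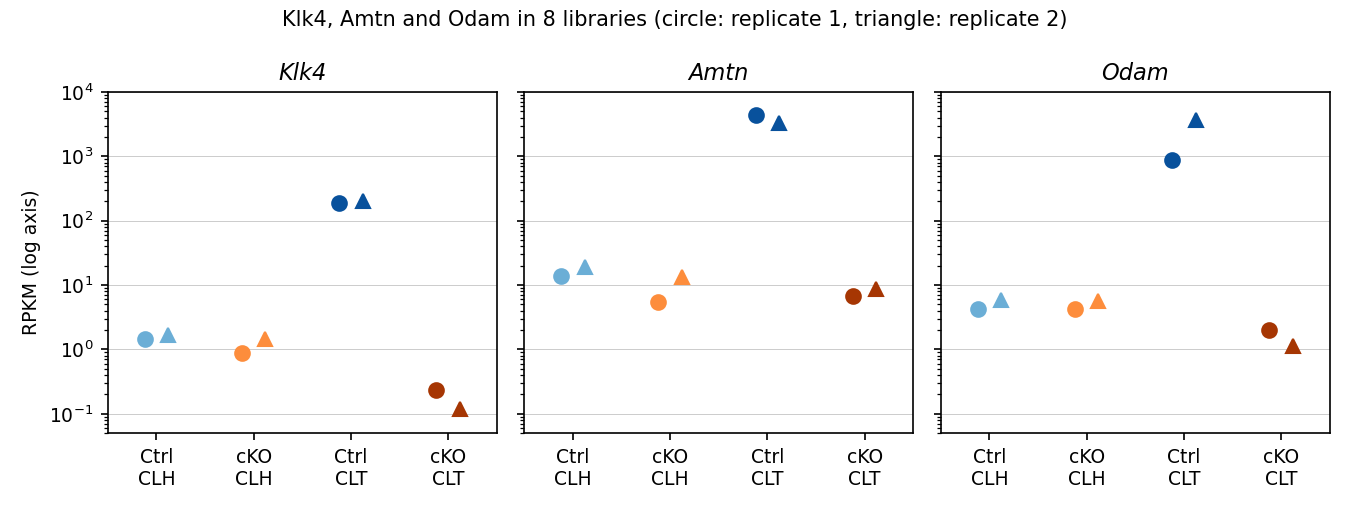
RPKM of *Klk4*, *Amtn* and *Odam* on a log axis in each of the 8 libraries, grouped by genotype and tissue, with circles for replicate 1 and triangles for replicate 2. Every gene is highest in Ctrl CLT (187 and 206, 4429 and 3246, 871 and 3671), and *Klk4* and *Odam* are lowest in cKO CLT.

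The 3 genes did not keep fixed proportions between the Ctrl CLT libraries. *Klk4* was 1.10-fold higher in Ctrl CLT 2 than in Ctrl CLT 1, *Odam* was 4.21-fold higher, and *Amtn* was 1.36-fold higher in Ctrl CLT 1. *Amtn* RPKM was 5.09 times that of *Odam* in Ctrl CLT 1 and 0.884 times in Ctrl CLT 2, so the order of these genes changed between pools of the same genotype and tissue. The secretory-stage genes were all higher in Ctrl CLT 1, by 2.62-fold for *Amelx*, 2.65-fold for *Ambn*, 1.91-fold for *Enam* and 1.58-fold for *Mmp20*. *Odam* thus moved against them between the pools and *Klk4* hardly moved.

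Between genotypes in CLT, all 3 genes fell in cKO. The mean RPKM was 1124-fold lower for *Klk4*, 492-fold lower for *Amtn* and 1442-fold lower for *Odam*, and for all 3 of 3 both cKO libraries lay below both Ctrl libraries. Of the 14148 genes tested, 35.1% separated in this way with cKO lower. Genes were tested with limma on log2(RPKM + 1) if their RPKM reached 1 in at least 2 of the 8 libraries. *Klk4*, *Amtn* and *Odam* all met that in Ctrl CLH too, not only in Ctrl CLT. The log2 fold change on this scale, which understates changes of low genes, was -7.39 for *Klk4* (SE 0.16, adjusted p = 0.0049, limma), -8.76 for *Amtn* (SE 0.23, adjusted p = 0.0077) and -9.46 for *Odam* (SE 0.76, adjusted p = 0.037). All 3 passed the adjusted threshold of 0.05, as did 1.68% of all genes tested in the direction of lower in cKO, and they ranked 9, 7 and 4 among the most negative log2 fold changes. None of the 3 passed as higher in cKO, as 0.0777% of genes did.

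The direction of these falls did not depend on either Ctrl CLT library. Without Ctrl CLT 1 the log2 fold change was -7.46 for *Klk4*, -8.54 for *Amtn* and -10.50 for *Odam*. Without Ctrl CLT 2 it was -7.32, -8.98 and -8.42. In these fits the spread comes from the cKO CLT pair alone. Their adjusted p, which include the lowest of each range below, therefore cannot show that the calls are firm. Some other alternatives ended the calls. voom on the recovered reads ended all 3, with adjusted p of 0.052 for *Klk4*, 0.052 for *Amtn* and 0.074 for *Odam*. With no filter on low values, limma ended those of *Amtn* (adjusted p = 0.078) and *Odam* (0.092). Over its alternatives the adjusted p ranged from 2.7e-06 to 0.052 for *Klk4* and from 2.9e-06 to 0.078 for *Amtn*. With either cKO CLT library left out, *Odam* had a limma adjusted p of 0.16 (without cKO CLT 1) or 0.17 (without cKO CLT 2), and across its alternatives the range was 4.1e-06 to 0.17. The number of genes past the threshold in CLT, 248 with all 4 libraries, ran from 11 without either cKO CLT library to 9838 when Ctrl CLT 1 was left out, and was 7369 when Ctrl CLT 2 was. Shuffling labels of 2 and 2 libraries has 0.333 as its lowest p.

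In CLH, where the same question was asked of the stem cell tissue, none of the 3 genes was called. By limma the log2 fold change was -0.24 for *Klk4* (SE 0.15, adjusted p = 0.73), -0.85 for *Amtn* (SE 0.41, adjusted p = 0.70) and -0.03 for *Odam* (SE 0.19, adjusted p = 0.98). *Amtn* was the only one whose libraries did not overlap, lower in cKO by a gap from 13.8 to 13.2, and 18.8% of all genes tested separated that way. With limma 0% of genes passed as lower in cKO and 0 in either direction, while 1027 had an unadjusted p under 0.05, and voom on the recovered reads called 0 as well.

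The difference between the tissues was tested by itself. The cKO effect in CLT minus that in CLH was -7.15 for *Klk4* (SE 0.24, adjusted p = 1.6e-04, limma interaction over 8 libraries), -7.91 for *Amtn* (SE 0.54, adjusted p = 0.0014) and -9.44 for *Odam* (SE 0.89, adjusted p = 0.0040). All 3 passed, as did 9.58% of genes tested with a more negative effect in CLT. The number of genes called by this test, 2494, depended on every library. It was 272 and 198 without Ctrl CLH 1 and 2, 8932 and 6599 without Ctrl CLT 1 and 2, 248 and 268 without cKO CLH 1 and 2, and 222 and 282 without cKO CLT 1 and 2.

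The comparisons between tissues below use the same libraries as those between genotypes above, so the high Ctrl CLT values enter both. Along the tissue axis of Ctrl mice, from stem cells to progenies, the 3 genes went from RPKM of 1.46 to 19.3 in CLH to 187 to 4429 in CLT. Mean RPKM in Ctrl CLT was 126 times that in Ctrl CLH for *Klk4*, 232 times for *Amtn* and 449 times for *Odam*. By log2 fold change *Odam* (8.22, SE 0.76), *Amtn* (7.77, SE 0.25) and *Klk4* (6.27, SE 0.14) ranked 1, 2 and 4 among the 14148 genes. *Klk4*, whose Ctrl CLT libraries were the closest to each other of the 3, was called (adjusted p = 0.021, limma) and was the only gene that passed, 0.00707% of those tested. *Amtn* (adjusted p = 0.0503, limma) and *Odam* (adjusted p = 0.22) did not pass. Both passed with the replicate block (adjusted p = 0.012 and 0.043, limma) and in 1 fit of 8 libraries (0.0013 and 0.0052). All 3 had both Ctrl CLT libraries above both Ctrl CLH libraries, as had 15.2% of genes tested. These calls turned on single libraries. The limma adjusted p of *Klk4* was 0.068 without Ctrl CLH 1 and 0.062 without Ctrl CLH 2, in a range of 2.0e-04 to 0.14 over its alternatives. *Amtn* and *Odam* each had 0.036 without Ctrl CLT 1 and 0.0040 without Ctrl CLT 2, where the spread comes from the CLH pair alone, and their ranges were 0.0013 to 0.30 and 0.0040 to 0.69. The number of genes called was 0 without either Ctrl CLH library, 468 when Ctrl CLT 1 was left out and 7537 when Ctrl CLT 2 was.

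In cKO mice the same axis ran flat or downward. *Klk4* was 6.77-fold lower in cKO CLT than in cKO CLH by mean RPKM (-0.88 on log2(RPKM + 1), SE 0.14, adjusted p = 0.00059, limma) and *Odam* was 3.13-fold lower (-1.22, SE 0.18, adjusted p = 0.00032). Both fell with no overlap of their libraries, in a comparison where 52.3% of genes separated downward and 45.1% were called lower. The call of *Odam* ended in the fit of all 8 libraries (adjusted p = 0.15, limma), in a range of 1.2e-04 to 0.15 over its alternatives. *Amtn* was at 6.88 and 8.72 against 5.48 and 13.2 and was not called (-0.13, SE 0.31, adjusted p = 0.71). Its sign turned to 0.07 with median-of-ratios scaling, to 0.43 without cKO CLH 2 and to 0.02 without cKO CLT 1, and it was -0.70 (adjusted p = 0.013) without cKO CLH 1, in a range of adjusted p from 0.013 to 0.98 over its alternatives. The median log2 fold change of all genes was -0.18 in this comparison and 0.02 after median-of-ratios scaling, and in Ctrl it was -0.13 and 0.01. *Klk4* and *Odam* stayed lower after that scaling, at -0.81 and -1.06.

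Beside the maturation genes, the secretory-stage matrix was described from a list of 4 genes. *Amelx*, *Ambn* and *Enam* encode the structural proteins amelogenin, ameloblastin and enamelin, and *Mmp20* encodes the protease of the secretory stage. All 4 were already abundant in CLH of both genotypes. *Amelx* in CLH had an RPKM of 10173 and 9794 in Ctrl against 9733 and 11044 in cKO. In CLT it had 48799 and 18601 in Ctrl against 6.57 and 3.68 in cKO. *Ambn* had 2821 and 2334, 3309 and 2831, 28838 and 10887, and 3.45 and 1.78, listed in that order. *Enam* had 300.4 to 519 across the CLH libraries, 1309 and 684 in Ctrl CLT against 0.234 and 0.0935 in cKO CLT. *Mmp20* had 48.7 to 85.3 in CLH, 152 and 96.5 in Ctrl CLT against 0.348 and 0.280 in cKO CLT. So *Amelx* and *Ambn* were more abundant than *Amtn* in Ctrl CLT and less abundant than it in cKO CLT.

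All 4 secretory genes fell in cKO CLT (1.68% of all genes tested were called lower by limma and 0 genes by voom), at a median log2 fold change of -10.99. In CLH limma called 0 of 4, none had an unadjusted p under 0.05, and voom called 0. The median over all genes tested was -0.0086 in CLT. In Ctrl CLT against Ctrl CLH their log2 fold changes ran from 1.10 for *Mmp20* to 2.79 for *Ambn*, beside 6.27 to 8.22 for *Klk4*, *Amtn* and *Odam*. The difference between these lists was not tested.

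The basal lamina in which AMTN and ODAM lie was followed through 7 measured genes of 8. The laminin genes *Lamb3* and *Lama3* were lower in cKO CLT. *Lamb3* fell from 211 and 96.1 to 9.15 and 10.3, and *Lama3* from 80.8 and 47.7 to 5.97 and 6.29. Their log2 fold changes were -3.75 and -3.15. Of the list 3 of 7 passed (1.68% of all genes tested passed as lower) and 6 of 7 were lower without overlap (35.1% of all genes were). voom called 0, and the median log2 fold change was -3.15. The integrin genes *Itga6* (30.3 and 43.1 in Ctrl CLT, 18.3 and 17.5 in cKO CLT) and *Itgb4* (34.8 and 21.6, then 12.8 and 15.0), which anchor epithelium to laminin, did not pass. *Gm17660* had 6.07 and 43.8 in Ctrl CLT against 0.408 and 0 in cKO CLT and was not called. The collagen gene *Col17a1* overlapped, with 89.0 and 56.3 against 63.0 and 69.5. Of the 7, 6 passed without Ctrl CLT 1 and 7 without Ctrl CLT 2. *Lama3* and *Lamb3* in CLH had RPKM of 12.1 to 64.6, so cKO CLT lay below CLH for them too.

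Of 21 genes of ion transport and enamel defects in maturation, 19 were tested, 5 passed as lower in cKO CLT and 0 as higher, against 1.68% and 0.0777% of all genes tested, and voom called 0. The median log2 fold change was -1.29. Without overlap 14 genes were lower and 3 higher, against 35.1% and 37.2% of all genes. The 5 that passed, named after their values were seen, were the calcium exchanger gene *Slc24a4*, the bicarbonate transporter gene *Slc4a4*, the chloride channel gene *Cftr*, the carbonic anhydrase gene *Car2* and the integrin gene *Itgb6*. *Slc24a4* had 0.382 to 0.836 across CLH, 50.0 and 81.2 in Ctrl CLT against 4.09 and 4.99 in cKO CLT. It kept a level in cKO CLT above that of CLH, which none of *Klk4*, *Amtn* and *Odam* did. The lowest log2 fold change of the list was that of the anion exchanger gene *Slc26a1*, at -4.01 (10.6 and 26.7 against 0.155 and 0.0682, adjusted p = 0.052, limma). The highest was that of *Fam83h*, a gene mutated in hypocalcified enamel, at 1.94 (11.9 and 3.76 against 27.5 and 30.7, adjusted p = 0.096, limma).

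The most abundant gene of that list took another course. *Car6*, which encodes a secreted carbonic anhydrase, had an RPKM of 0.106 to 0.516 in CLH, 90.2 and 162 in Ctrl CLT against 224 and 229 in cKO CLT (limma adjusted p = 0.14, log2 fold change 0.90). It was thus low in CLH and high in Ctrl CLT like *Klk4*, and high in cKO CLT unlike *Klk4*. With 1 Ctrl CLT library left out, 17 of the 19 genes of the list passed in either direction, without Ctrl CLT 1 as without Ctrl CLT 2. Of all genes tested, 69.5% and 52.1% passed in those fits.

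Genes of iron handling, for storage, uptake and export in the pigmented rodent incisor, had 0 of 4 past the threshold by limma and 0 by voom. Of all genes tested, 1.68% passed as lower and 0.0777% as higher by limma. An unadjusted p under 0.05 was held by 3 of the 4, and by 5116 of all 14148 genes tested (limma). The median log2 fold change of the list was -1.48. The ferritin genes *Fth1* (947 and 1677 in Ctrl CLT, 233 and 220 in cKO CLT) and *Ftl1* (987 and 1843, then 254 and 305) were lower without overlap, as were 35.1% of all genes tested. The iron exporter gene *Slc40a1* was higher, at 33.5 and 15.1 against 111 and 100.02, and the transferrin receptor gene *Tfrc* overlapped, at 43.4 and 118 against 48.6 and 40.2. All 4 passed without Ctrl CLT 1 (median -2.06), and 3 did without Ctrl CLT 2 (median -0.90).

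Of 8 regulators of ameloblast maturation limma called 1 as lower in cKO CLT (1.68% of all genes tested) and voom 0. The 1 was the growth factor gene *Tgfb1*, which fell from 39.7 and 48.9 to 7.44 and 7.49 (limma adjusted p = 0.031, log2 fold change -2.41, SE 0.17). The transcription factor gene *Runx2* had 10.2 and 21.6 against 2.08 and 1.48, *Runx1* had 17.2 and 15.6 against 6.82 and 5.52, and *Sp6* had 120 and 153 against 64.5 and 63.2. *Cbfb* (32.3 and 61.0 against 28.2 and 22.9), *Foxo1* (19.3 and 34.0 against 16.8 and 14.7) and *Msx2* (78.8 and 89.9 against 76.3 and 70.4) differed by less. With *Tgfb1*, these 7 of 8 were lower without overlap, as were 35.1% of all genes, and the other 6 of them did not pass. *Dlx3* had 125 and 120 against 134 and 140.

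The list's median log2 fold change was -0.93, and 6 of 8 passed without Ctrl CLT 1 (median -1.22) and 4 of 8 without Ctrl CLT 2 (median -0.62). *Dlx3*, *Msx2*, *Sp6*, *Cbfb* and *Foxo1* thus kept an RPKM above 10 in both cKO CLT libraries, where *Klk4* was under 1. *Ctsc*, a lysosomal protease gene listed with *Mmp20*, had 27.6 and 21.7 in Ctrl CLT against 62.7 and 62.2 in cKO CLT and did not pass (adjusted p = 0.060, limma), so 1 of the 2 enamel proteases besides *Klk4* was called lower, against 1.68% of all genes tested (0 by voom), and their median was -2.61. Without either Ctrl CLT library both passed.

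**Figure D2:**
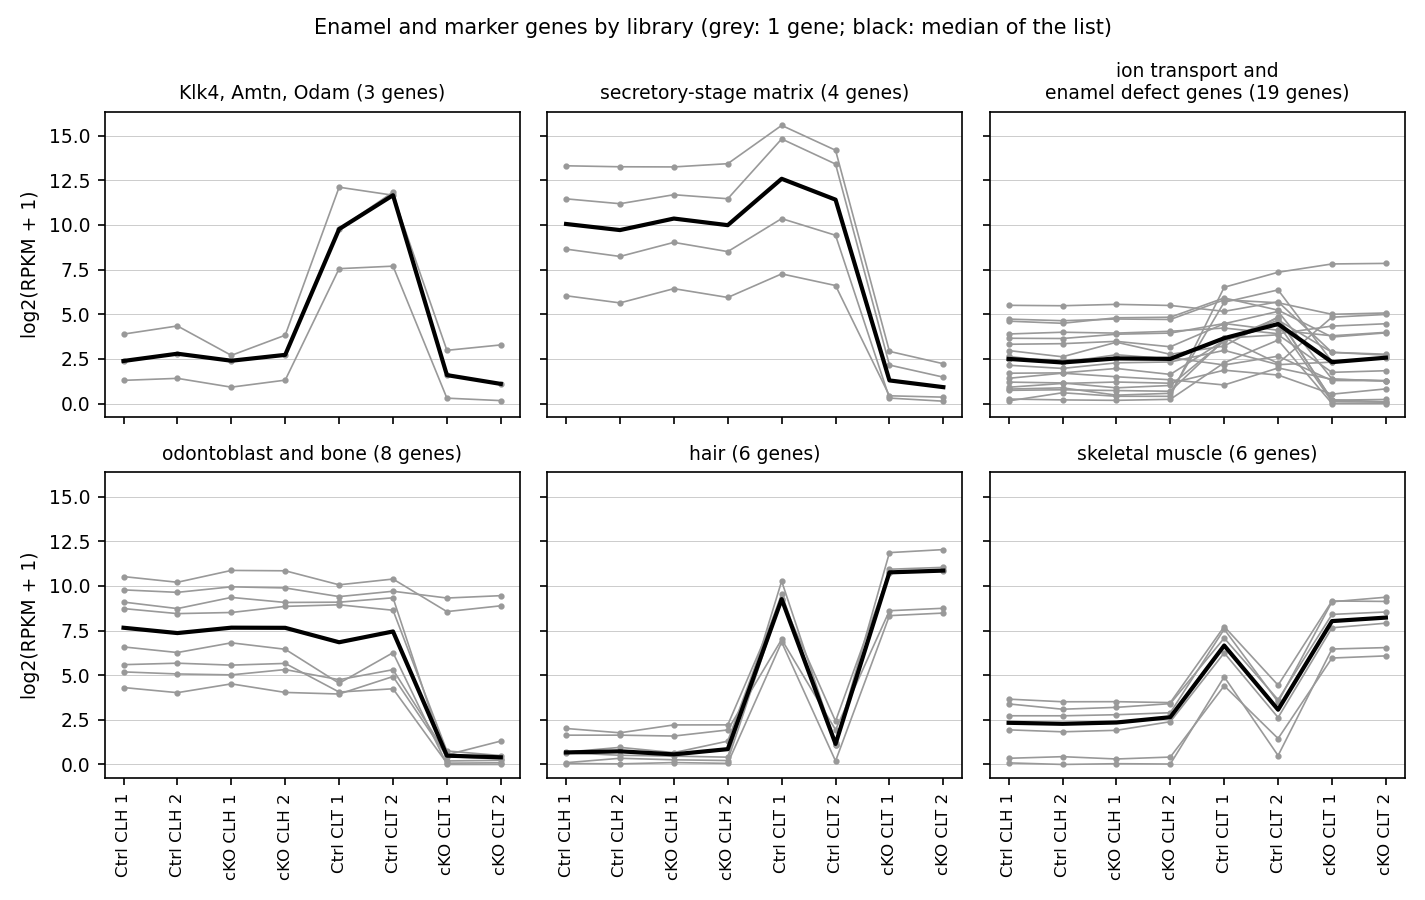
log2(RPKM + 1) of the tested genes of 6 lists in each of the 8 libraries, with a grey line per gene and a black line for the median of the list. *Klk4*, *Amtn* and *Odam* are high in the 2 Ctrl CLT libraries alone, the secretory-stage genes are high in all libraries but the 2 of cKO CLT, and hair and muscle genes are high in Ctrl CLT 1 and in cKO CLT.

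*Klk4* is a member of the kallikrein gene cluster, and its neighbours on chromosome 7 had another pattern. *Klk7*, *Klk6* and *Klk5* precede it, and they encode proteases of the skin barrier and other epithelia. *Klk7*, the most abundant of the family here, had an RPKM of 114 in Ctrl CLT 1, 0.0862 in Ctrl CLT 2, against 359 and 354 in cKO CLT, with 0.0499 to 0.306 in CLH. *Klk5* had 10.1 and 0 in Ctrl CLT against 29.9 and 32.2 in cKO CLT. *Klk6* had 9.02 and 0, then 24.4 and 26.2, and neither had a read in CLH. *Klk15*, which follows *Klk4*, had 1.21 and 0, then 2.61 and 3.45. *Klk1b7-ps* and *Klk1b8* had 1 read each over all libraries. *Klk5*, *Klk6*, *Klk7* and *Klk15* were thus highest in cKO CLT, where *Klk4* was near 0, and in Ctrl CLT 2, where *Klk4* was highest, none but *Klk7* had a read.

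Over 12 tissue kallikrein genes, of which 9 were tested, limma called 0 and voom called 0. An unadjusted p under 0.05 was held by 5 of the 9, and by 5116 of all 14148 genes tested (limma). Without overlap 8 were higher in cKO CLT (37.2% of all genes tested were), and the median log2 fold change was 2.08. The lowest was *Klk8*, at 0.48 (12.4 and 4.07 against 9.69 and 11.4), and the highest *Klk7*, at 4.998. Their summed RPKM was 188 and 8.42 in Ctrl CLT against 534 and 545 in cKO CLT. Ctrl CLT 1 held 34.8% of the mean cKO CLT sum, beside 33.3% for hair genes, 34.7% for muscle genes and 35.1% for cornified epidermis genes. Leaving out Ctrl CLT 1 let 9 of 9 pass, with a median of 2.96, and leaving out Ctrl CLT 2 let 8 pass, with a median of 1.19.

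*Amtn* and *Odam* belong to the cluster of secretory calcium-binding phosphoprotein (SCPP) genes on chromosome 5, with caseins and salivary genes. *Ambn* and *Enam* follow *Amtn* directly, and after them *Igj*, an immunoglobulin joining chain gene, had at most 1.22. The genes before *Amtn*, *Smr2* and *Prol1*, had no read in any library, and *Gm7714* had 2 reads in all. Around *Odam*, *Csn1s2b*, *4930432K09Rik* and *4931407G18Rik* had no read and *Gm7337* had 1. The casein gene *Csn3* had 1.24 and 2.43 in Ctrl CLT, 1.21 and 1.10 in cKO CLT and at most 0.0212 in CLH. *1700066N21Rik*, whose span takes in *Csn3*, had 0 to 5.93 in CLH, 1.501 and 0 in Ctrl CLT and no read in cKO CLT.

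Of 7 measured genes between *Odam* and *Amtn*, 4 had no read in any library and 2 were tested. The highest RPKM among the 7 was 5.93. In a list of 18 cluster genes, 15 were measured and 6 tested, with a median log2 fold change of -0.33. By limma 2 of the 6 passed as lower in cKO CLT, against 1.68% of all genes tested (0 by voom), *Ambn*, the lowest and the most abundant, and *Enam*. *Rufy3*, outside the SCPP genes proper, was the highest, at 0.50 (2.51 and 3.56 against 4.44 and 4.92), and did not pass. Leaving out Ctrl CLT 1 let 4 of the 6 pass, with -0.59 as the median, and leaving out Ctrl CLT 2 let 3 pass, with -0.07.

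The genes most like each member were sought by Pearson's r of log2(RPKM + 1) over the 8 libraries, among 8383 genes. For *Klk4* they were *Amtn* (r = 0.993), *Odam* (0.991), the sialic acid lyase gene *Npl* (0.989), the mitochondrial carrier gene *Slc25a33* (0.985) and the matrix gene *Matn2* (0.985). For *Amtn* they were *Klk4* (0.993), the malate dehydrogenase gene *Mdh1* (0.992), the phospholipase gene *Pla2g16* (0.986), the calcium channel gene *Orai2* (0.984) and *Grasp* (0.983). For *Odam* they were *Slc26a1* (0.997), *Matn2* (0.996), *Arrdc4* (0.994), *Klk4* (0.991) and *Npl* (0.991). *Klk4* was in the lists of both others, while *Odam* came 6 in order for *Amtn* and *Amtn* 14 in order for *Odam* (r = 0.978). The points share their source in groups, with 2 Ctrl CLT libraries apart from 6 others, and r says little beyond that contrast. With Ctrl CLT 1 left out, 1, 1 and 2 of the 5 genes stayed for *Klk4*, *Amtn* and *Odam*. With Ctrl CLT 2 left out, 1, 2 and 2 stayed, and by Spearman's rho 0, 0 and 1.

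These like genes were chosen for a high r over the same 8 libraries, so their shared shape follows from the choice. The size of the change differed between them. Besides *Klk4* and *Odam*, *Slc25a33*, *Slc26a1*, *Pla2g16* and *Grasp* reached the RPKM of 10 needed for the search in Ctrl CLT alone. *Amtn* reached it in CLH too. *Npl* had an RPKM of 11.9 to 14.6 in CLH, 45.8 and 55.6 in Ctrl CLT against 9.74 and 9.64 in cKO CLT. *Matn2* had 14.4 to 15.1, then 22.9 and 26.3, then 13.4 and 12.6. *Mdh1* had 108 to 115, then 187 and 174, then 113 and 114. Each was highest in the 2 Ctrl CLT libraries. In cKO CLT *Mdh1* lay within its CLH range, as *Amtn* did, while *Npl* and *Matn2* lay below theirs. *Slc25a33* had 10.2 to 11.3 in Ctrl CLT and 2.40 to 3.97 elsewhere. *Arrdc4* had 38.0 and 55.5 in Ctrl CLT and 11.6 to 15.2 elsewhere, *Pla2g16* 16.7 and 13.5 against 5.51 to 6.99, *Orai2* 28.8 and 24.1 against 10.2 to 11.6, and *Grasp* 17.9 and 15.3 against 7.39 to 8.83.

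Since the 3 genes moved together in CLT, the 250 bases before each start were read from the RefSeq promoter table (GRCm38.p6), which matched 3 of 3. They are shown to let the letters around the starts be compared, and capitals mark matches to the motifs searched on both strands. These were RUNX (TGTGGT), AP-1 (TGANTCA), homeobox (TAATTA) and TATA box (TATAAA). The RefSeq start of *Odam* lies 685 bases before that of the counted gene, and the RefSeq start of *Klk4* 12 bases before it.
Klk4 promoter, chr7:43880910-43881159, plus strand: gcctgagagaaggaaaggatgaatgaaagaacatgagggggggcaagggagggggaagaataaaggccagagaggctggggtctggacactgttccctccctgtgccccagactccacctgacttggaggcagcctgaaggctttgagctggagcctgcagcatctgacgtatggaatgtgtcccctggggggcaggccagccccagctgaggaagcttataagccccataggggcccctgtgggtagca
Amtn promoter, chr5:88375858-88376107, plus strand: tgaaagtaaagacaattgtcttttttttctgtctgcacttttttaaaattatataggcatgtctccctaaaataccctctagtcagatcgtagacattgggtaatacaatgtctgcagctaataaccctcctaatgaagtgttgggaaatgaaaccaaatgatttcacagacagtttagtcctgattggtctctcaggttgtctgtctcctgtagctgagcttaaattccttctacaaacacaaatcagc
Odam promoter, chr5:87884760-87885009, plus strand: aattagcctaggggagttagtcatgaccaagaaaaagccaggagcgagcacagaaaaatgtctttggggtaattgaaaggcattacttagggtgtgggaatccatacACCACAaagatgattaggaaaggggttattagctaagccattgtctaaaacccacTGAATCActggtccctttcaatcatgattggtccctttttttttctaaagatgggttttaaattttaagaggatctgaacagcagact
The *Odam* window held 1 RUNX match, 143 bases before the start on the minus strand (ACCACA), and 1 AP-1 match, 88 bases before it. The *Klk4* and *Amtn* windows held none of the 4 sets of letters. Among 32851 promoter windows of this length, 14.0% held the RUNX letters, 6.75% AP-1, 4.84% the homeobox letters and 12.4% the TATA box. A match is a description of letters and not of a bound site.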

How the data were processed

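Expression of *Klk4*, *Amtn* and *Odam* was taken from the table the authors deposited, RPKM per gene for 8 libraries. The authors aligned reads to mm10 with STAR 2.6.0b-1 and counted them with featureCounts 1.6.3. The annotation and the strand setting are not given in the sources used here, so overlapping genes are uncertain. Every per-sample column was used (0 left over). RPKM times gene length gave whole multiples of 1 step per library (within 0.05 of a read) for 100.0% of values checked, which gave the reads. Intervals cover counting error only. Totals were about 26590000 to 34420000 reads. A gene with no read allows up to 3 reads.

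Groups came from the sample titles. log2(RPKM + 1) was tested with limma 3.58.1 (R 4.3.3; lmFit, eBayes with a variance trend) for genes with RPKM of at least 1 in at least 2 libraries, p adjusted by Benjamini-Hochberg with 0.05 as the threshold. Each comparison used its own 4 libraries, and the interaction used 8. The count model the authors used was not run, and voom was the count method tried. The fits were tested on simulated data, whose outcome is not given here and on which no result rests. Gene models came from GENCODE M21.

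The members and lists were chosen with earlier results of these data known. Named genes were the members, *Med1*, every member of enamel lists of at most 8 genes, the highest, lowest and most abundant member of longer lists, the 5 most like genes (RPKM of at least 10 in a library) and 3 neighbours on either side. Alternatives were a pseudocount of 0.1, no filter, median-of-ratios scaling, 1 fit of 8 libraries, a replicate block, voom on recovered reads, the log2 ratio of mean RPKM, and each library left out, where the lone library is assumed to vary like the others. Counts of list genes without each Ctrl CLT library were added after seeing the data. Genes whose name occurs on more than 1 row were left out of the lists and of the search for like genes. They were not removed from the genes tested.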

Additional observations from a re-analysis of the deposited data

Results flagged for a closer look

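The effect of cKO differed between CLT and CLH by the limma interaction test for all 3 genes. It was more negative in CLT for each, as was called for 9.58% of all genes tested. The difference in log2 fold change was -7.15 for *Klk4*, -7.91 for *Amtn* and -9.44 for *Odam*, with adjusted p of 1.6e-04, 0.0014 and 0.0040. Both CLT libraries of Ctrl were above both of cKO for each gene, as for 35.1% of all genes tested. In CLH *Klk4* and *Odam* overlapped between genotypes. Of the Ctrl CLT libraries, Ctrl CLT 1 held more of the hair, muscle and cornified epidermis genes, and both cKO CLT libraries held more than it. Without Ctrl CLT 1 the differences were -7.22, -7.68 and -10.47, and without Ctrl CLT 2 they were -7.08, -8.13 and -8.40.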

How the results depend on the processing

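Of 174 alternative values for the 3 genes in 5 comparisons, 169 kept their direction and 141 kept direction and side of the threshold, where a value with no test counts if it stayed within 1 SD. For cKO against Ctrl in CLT, voom on the recovered reads gave -10.03 for *Klk4*, -8.88 for *Amtn* and -10.13 for *Odam* (adjusted p = 0.052, 0.052 and 0.074), and no filter gave -8.76 for *Amtn* and -9.46 for *Odam* (0.078 and 0.092). With a library left out *Odam* ran from -10.50 to -8.42, *Amtn* from -8.98 to -8.54 and *Klk4* from -7.46 to -7.32. For Ctrl CLT against CLH, *Klk4* was 6.27 with no filter and 6.94 with voom (0.13 and 0.14), and 6.20 to 6.34 with a library left out. *Amtn* passed at 7.77 with 1 fit of 8 libraries and with the replicate block (0.0013 and 0.012) and at 7.85 with a pseudocount of 0.1 (0.043), with 7.55 to 8.0 on leaving out a library. *Odam* passed at 8.22 with 1 fit and with the block (0.0052 and 0.043), with 7.18 to 9.26. For cKO CLT against CLH, *Odam* did not pass in 1 fit (-1.22, 0.15), and *Amtn* was 0.07 with median-of-ratios scaling and -0.70 to 0.43 with a library left out. In CLH *Odam* ran from -0.23 to 0.18. The log2 ratio of mean RPKM was -10.13 for *Klk4* in CLT, 6.98 in Ctrl, -2.76 in cKO and -9.74 for the difference, and for *Odam* -1.65 in cKO and -10.46 for the difference. The causes were not tested.

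Genes called in CLT (248) numbered 6183 in 1 fit, 1744 with the replicate block, 3 with no filter, 0 with voom and 11 to 9838 with a library left out. In Ctrl (1) they numbered 837, 5, 0, 0 and 0 to 7537, and 2 with a pseudocount of 0.1. For the difference between tissues (2494) they numbered 1448 with the block and 198 to 8932. Whether replicate numbers mark litters is not stated in the labels. The correlation of deviations from the group mean was 0.20 between the tissues of Ctrl and 0.31 between those of cKO, and from -0.19 to 0.07 between genotypes. The block changed no call of the 3 genes beyond those given. The median of the endothelial list in CLT was -0.09, and ran from -0.30 without Ctrl CLT 1 to 0.13 without Ctrl CLT 2. Depth limits *Klk4* in cKO CLT, at 8 and 4 reads.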

Other observations

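In lists of other cells of the tissue, no gene passed the limma threshold between genotypes in CLT. Mesenchyme genes (6 of 6 measured) had a median log2 fold change of -1.22. Their summed RPKM was 744 and 1206 in Ctrl CLT against 932 and 1032 in cKO CLT, led by *Col3a1*. That gene was higher in cKO CLT without overlap, at 527 and 456 against 874 and 979, as were 37.2% of all genes tested. In the same list 4 were lower without overlap, as were 35.1% of all genes. Leukocyte genes (5 of 5), led by *Lyz2*, had a median of -0.58 with sums of 141 and 194 against 111 and 107. Endothelial genes (4 of 4), led by *Pecam1*, had a median of -0.09 with sums of 43.4 and 59.4 against 49.7 and 50.4. Erythroid genes (3 of 5 measured, 1 tested) had *Alas2* at 5.68 and 4.96 against 4.04 and 5.06. Salivary genes (5 of 6 measured, 1 tested) summed to less than 1 in every CLT library. By unadjusted p under 0.05 there were 4 mesenchyme, 2 leukocyte and 1 endothelial genes, beside 5116 of all 14148 genes tested (limma), and voom called 0. Leaving out Ctrl CLT 1 let 6 mesenchyme, 5 leukocyte and 2 endothelial genes pass (medians -1.88, -0.97 and -0.30), and leaving out Ctrl CLT 2 let 4, 2 and 2 pass (medians -0.62, -0.30 and 0.13).

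Of the ratios between the 3 genes in CLT, 1 separated the genotypes. This separation was not tested, and shuffling labels of 2 and 2 libraries has 0.333 as its lowest p. *Amtn* RPKM was 29.8 and 73.5 times that of *Klk4* in cKO CLT, against 23.7 and 15.8 times in Ctrl CLT and 6.18 to 11.7 times in CLH. The other ratios overlapped. *Odam* RPKM was 8.72 and 9.61 times that of *Klk4* in cKO CLT, against 4.67 and 17.8 times in Ctrl CLT. It was 0.293 and 0.131 times that of *Amtn* in cKO CLT, against 0.197 and 1.13 times in Ctrl CLT. With 8 and 4 reads of *Klk4*, ratios to it are imprecise in cKO CLT.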
